A study of Homo sapiens with 4 samples.

Results

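The S100 genes encode small calcium-binding proteins. Here 10 of them were followed in cells labelled as a hepatocellular carcinoma (HCC) line that had been given migrasomes (Migs). Migs are the vesicles that migrating cells leave behind on their retraction fibres. The 10 genes, S100A2, S100A3, S100A4, S100A6, S100A10, S100A11, S100A13, S100A14, S100A16 and S100P, were chosen by name from 58735 genes in the tables, and their identifiers were matched in both the table of reads and the table of FPKM values. All 10 passed the filter of at least 10 reads in at least 1 library, which left 19895 genes for comparison.

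The labels give the recipient cells of every library as wild-type MHCC-97H, an established metastatic human HCC line, harvested after 24 h. There were 4 libraries, 1 for each condition. Cells labelled PBS received phosphate-buffered saline only. Cells labelled normo-Migs received 2 µg of Migs shed by MHCC-97H cells grown in normoxia, those labelled hypo-Migs received 2 µg of Migs from MHCC-97H cells grown in hypoxia, and those labelled CD147KO-Migs received 2 µg of Migs from hypoxic MHCC-97H cells in which CD147 was knocked out. The knockout was in the donor cells of the Migs and not in the sequenced cells, so the level of the CD147 gene (BSG) here does not check it, and whether the knockout line was 1 clone is not given in the sources used here. The comparisons with PBS ask what receiving Migs does to the cells, and those between Migs ask what hypoxia and CD147 in the donor cells add.

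S100 proteins fold around a pair of calcium-binding loops called EF-hands and usually work as dimers. On binding calcium most of them expose a surface that grips a partner protein, such as an annexin or a myosin heavy chain. Several are also secreted and act on receptors including RAGE (AGER), TLR4 and CD147, and family members are widely studied in tumour cells for their ties to migration and invasion.

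With each kind of Migs, S100A4, S100A6 and S100A13 were higher than with PBS by 1.56-fold to 1.84-fold, and S100A14 was lower by 3.42-fold to 5.59-fold. The rises were log2 fold changes of 0.64 to 0.88, beside a median size of change of 0.56 to 0.57 over all genes tested. S100A11 was slightly higher, S100A10 and S100P were lower by less than 1.5-fold, and S100A3 was higher with hypo-Migs and CD147KO-Migs by 1.64-fold and 1.63-fold on few reads. S100A2 and S100A16 lay within 1.27-fold of PBS. Among the 3 Mig libraries none of these 10 genes differed by 2-fold. The PBS library stood apart from the Mig libraries, as described next, so these folds hold only for the library labelled PBS. With 1 library per condition there is no test between conditions. The intervals given below are exact 95% intervals for the error of counting reads only and leave out variation between cultures.

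Each library held between 33882496 and 40285223 reads assigned to genes, of which 96.8% to 98.0% fell on protein-coding genes. Mitochondrial genes took 2.69% of reads in the PBS library and 5.00% to 5.16% in the Mig libraries. The PBS library stood apart from the rest: 251 genes had at most 3 reads there and at least 100 in every other library, against 0 such genes for each Mig library. All comparisons with PBS share this 1 library, so what is particular to it and what Migs did cannot be told apart. KRT19 had 11287 reads in PBS and 32 to 75 in the Mig libraries, and SPARC had 0 in PBS and 13404 to 16845 in the others. Whether the PBS library came from another line or stock of cells than the label says was not tested. Every fold against PBS, above and below, holds only for the library labelled PBS. The line's labelled origin was checked with markers. Of 12 hepatocyte markers, ALB, AFP, APOB and TTR had 0 reads in all 4 libraries. HNF4A of the same list had 134 reads in PBS and 146, 246 and 141 with normo-, hypo- and CD147KO-Migs. FGB had 0 in PBS and 561 to 832 with Migs. The markers of this list thus did not go together, and their level was low in every library. At most 3 reads were found for 10 of the 12 in PBS and for 8, 8 and 5 with normo-, hypo- and CD147KO-Migs. Summed over the list, the level was 0.708 FPKM in PBS and 7.14 to 9.77 FPKM with Migs. HNF4A was at 0.530 to 0.831 FPKM. Whether the cells of any of the 4 libraries are of the labelled line was not tested. Of 7 epithelial markers, the keratin genes KRT8 and KRT18 had at least 105571 and 36742 reads in every library. KRT19 did not keep its level, as above, and CDH1 had 0 reads in PBS and 112 to 123 with Migs.

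The positions of the S100 genes are given on GRCh38, to which the tables correspond, with the gene models of GENCODE 29. In all, 9 of the 10 lie on chromosome 1 and are read from the minus strand. S100A10 (chr1:151982915-151994390) and S100A11 (chr1:152032506-152047907) form a block of 65.0 kb. A gap of 1487 kb separates it from a second block of 7 genes within 96.8 kb, in the order S100A6 (chr1:153534599-153536244), S100A4 (chr1:153543613-153550136), S100A3 (chr1:153547329-153549372), S100A2 (chr1:153561108-153567890), S100A16 (chr1:153606886-153613145), S100A14 (chr1:153614255-153616986) and S100A13 (chr1:153618787-153631360). S100P lies alone on the plus strand of chromosome 4 (chr4:6693069-6697170). S100A14, lower with Migs, and S100A13, higher with Migs, are thus neighbours.

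The promoter table of RefSeq (GRCh38.p14) gave 14 windows of 250 bases for the 10 genes, since 7 of the genes have 1 annotated start each and the others more. The letters TATAA, searched on the strand of the gene and starting 20 to 40 bases before the start, were found in 5 of the 14 windows, those of S100A4, S100A6, S100A13, S100A14 and S100P, against 3.91% of 35116 windows of all genes. The stretches from 40 to 11 bases before the start are shown, with TATAA in capitals, for these 5 genes and for S100A11, the most abundant member, which lacks these letters there.
S100A14 (chr1:153616336-153616365, minus strand): cttcccccaggTATAAgagctgagctcagg
S100A13 (chr1:153627516-153627545, minus strand): tccccgctgctTATAAacctcagccctgag
S100A4 (chr1:153545817-153545846, minus strand): tggctggggTATAAataggtcagacctctg
S100A6 (chr1:153536002-153536031, minus strand): caccgaccgcTATAAggccagtcggactgc
S100P (chr4:6693838-6693867, plus strand): atgaggctgcctTATAAagcaccaagaggc
S100A11 (chr1:152037015-152037044, minus strand): gtaaggcttgggcaaggctgggccgggaag
The 5 genes with TATAA do not share a direction, since S100A4, S100A6 and S100A13 were higher with Migs than with PBS while S100A14 and S100P were lower. The letters ACGTG and GCGTG, the cores bound by hypoxia-inducible factors, were looked for on both strands of the 250 bases. ACGTG was in 1 of 14 windows against 18.5% of all windows, and GCGTG was in 7 of 14 against 32.2%. A match of letters is a description and not a site of binding.

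Levels between genes are compared as FPKM, fragments scaled to the length of the gene and the size of the library, as the authors deposited them. The family separated into 6 abundant genes, from 57.6 to 564 FPKM over all libraries, and 4 low ones, from 0.661 to 7.60 FPKM. S100A11 stood first in each library with 470 FPKM in PBS, 564, 551 and 522 with normo-, hypo- and CD147KO-Migs, which put it between rank 39 and rank 44 of all genes. S100A6, S100A4, S100A16, S100A10 and S100P followed it in this order in all 4 libraries. The order was therefore unchanged among the abundant members while the distances between them were not: S100A4 made up 15.0% of the summed S100 FPKM in PBS and 18.8% to 20.9% in the Mig libraries, and S100A10 made up 10.3% and then 5.70% to 6.24%. The sum over the 10 genes was 1314 FPKM in PBS, 1620, 1573 and 1625 with normo-, hypo- and CD147KO-Migs. The order of the 4 low genes did change, with S100A2 leading in PBS and S100A13 in each Mig library, and S100A14 was last in each Mig library.

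**Figure D1:**
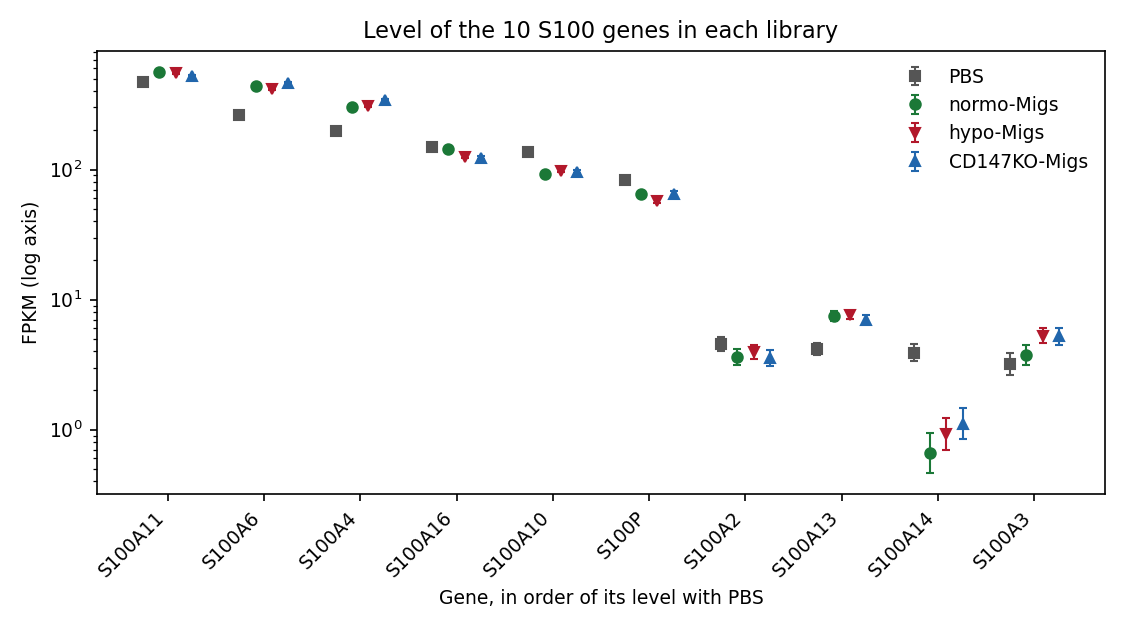
FPKM of each S100 gene on a log axis in the 4 libraries, with genes ordered by their level in PBS; each symbol is 1 library and the bars are 95% intervals for counting error. The 6 abundant genes lie between 57.6 and 564 FPKM, and S100A14 is the gene whose PBS symbol lies farthest above its Mig symbols.

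S100A4 and S100A6 are the members best known from invasive and proliferating cells. S100A4, also called metastasin, binds the heavy chain of nonmuscle myosin IIA. It had 6974 reads in PBS, 10744, 12851 and 12303 with normo-, hypo- and CD147KO-Migs, or 197, 305, 310 and 339 FPKM. Scaled to library size, its level was higher than in PBS by a log2 fold change of 0.64 (0.60 to 0.69), 0.66 (0.62 to 0.71) and 0.80 (0.76 to 0.84) with normo-, hypo- and CD147KO-Migs. All 3 Mig libraries lay above PBS and close to each other.

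S100A6, or calcyclin, marks proliferating cells and binds the ubiquitin ligase adaptor CACYBP. Its reads numbered 8828 in PBS, 14538, 16246 and 15852 with normo-, hypo- and CD147KO-Migs, or 263, 436, 413 and 462 FPKM. The log2 fold changes against PBS were 0.74 (0.70 to 0.78), 0.66 (0.62 to 0.70) and 0.82 (0.79 to 0.86) in the same order. The ratio of S100A6 to its neighbour S100A4 in FPKM stayed between 1.33 and 1.43 in all 4 libraries. An antisense gene, BX470102.1, covers 2.37% of the S100A6 exon bases and had 28 to 42 reads, too few to move these values.

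S100A13, which takes part in the release of FGF1 from cells, showed an increase of like size on the log2 scale at a much lower level. Its reads were 318 in PBS, 570, 682 and 550 with normo-, hypo- and CD147KO-Migs, or 4.15, 7.48, 7.60 and 7.02 FPKM. Against PBS this was a log2 fold change of 0.86 (0.66 to 1.06), 0.88 (0.69 to 1.08) and 0.77 (0.57 to 0.97). FGF1 itself had 0 reads in 3 libraries and 2 with CD147KO-Migs. The exons of S100A13 share 33.5% of their bases with other genes: AL162258.1 on the same strand, which had 0 reads in every library, and S100A1 on the opposite strand, which had 20 to 42. How reads in shared exons or on either strand were counted is not given in the sources used here, so a part of the S100A13 reads could belong to these genes.

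S100A10 and S100A11 are the members that work through annexins. S100A10, also called p11, has lost calcium binding, pairs with annexin A2 (ANXA2) at the plasma membrane and there serves as a docking site for plasminogen. It had 7250 reads in PBS, 4894, 6132 and 5236 with normo-, hypo- and CD147KO-Migs, or 136, 92.3, 98.2 and 96.0 FPKM. Its level was lower than in PBS by a log2 fold change of -0.55 (-0.60 to -0.50), -0.46 (-0.51 to -0.41) and -0.49 (-0.54 to -0.44). PBS was the highest of the 4 libraries and the Mig libraries were at most 1.06-fold apart.

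S100A11, which binds annexin A1 (ANXA1), had 11048 reads in PBS, 13174, 15165 and 12541 with normo-, hypo- and CD147KO-Migs. The log2 fold changes against PBS were small, 0.27 (0.24 to 0.31), 0.24 (0.20 to 0.27) and 0.16 (0.12 to 0.20). Each interval lay above 0, yet the changes were less than the median size of change over all genes tested, which was 0.56 to 0.57.

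S100A14 is a gene of epithelial cells and the only one of the 10 past 2-fold in any comparison. It had 173 reads in PBS, 29, 48 and 50 with normo-, hypo- and CD147KO-Migs, or 3.92, 0.661, 0.928 and 1.11 FPKM. Its level was lower with Migs by a log2 fold change of -2.48 (-3.18 to -1.98), -2.02 (-2.56 to -1.60) and -1.77 (-2.30 to -1.35), that is 5.59-fold, 4.05-fold and 3.42-fold. The intervals exclude a 2-fold change in all 3 comparisons, and they overlap one another. Since cells are pooled in each library, fewer cells expressing S100A14 and less of its RNA in each cell cannot be told apart.

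S100A2, a gene of epithelial cells, had 247 reads in PBS, 195, 251 and 197 with normo-, hypo- and CD147KO-Migs, or 4.56, 3.62, 3.96 and 3.56 FPKM. The log2 fold changes were -0.32 (-0.60 to -0.05), -0.19 (-0.45 to 0.06) and -0.34 (-0.62 to -0.07), so the hypo-Migs library could not be parted from PBS even by counting error. S100A16, which is found in most tissues and is next to S100A14 on the chromosome, had 8781 reads in PBS, 8390, 8653 and 7440 with normo-, hypo- and CD147KO-Migs. Its log2 fold changes of -0.05, -0.24 and -0.26 were the smallest in the family with normo-Migs and remained within 1.2-fold throughout. S100A14 was thus low in the Mig libraries without a like change in the gene beside it.

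S100P, named for the placenta and raised in many carcinomas, binds ezrin and RAGE. It had 3690 reads in PBS, 2829, 2987 and 2959 with normo-, hypo- and CD147KO-Migs, or 83.4, 64.3, 57.6 and 65.4 FPKM. The log2 fold changes were -0.36 (-0.44 to -0.29), -0.52 (-0.59 to -0.45) and -0.34 (-0.41 to -0.27). S100A3, a protein of the hair cuticle, had 106 reads in PBS, 123, 204 and 176 with normo-, hypo- and CD147KO-Migs, or 3.21, 3.75, 5.28 and 5.21 FPKM. Its log2 fold changes were 0.23 (-0.15 to 0.62), 0.72 (0.38 to 1.08) and 0.70 (0.35 to 1.07), so the normo-Migs library could not be parted from PBS by counting error while the libraries given hypoxic Migs lay above both. S100A3 lies within the ends of S100A4 on the same strand, but the genes share 0 exon bases. In FPKM the level of S100A3 was 0.0123 to 0.0170 of that of S100A4 over the 4 libraries. Whether a part of the S100A3 reads came from unspliced S100A4 RNA was not tested.

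**Figure D2:**
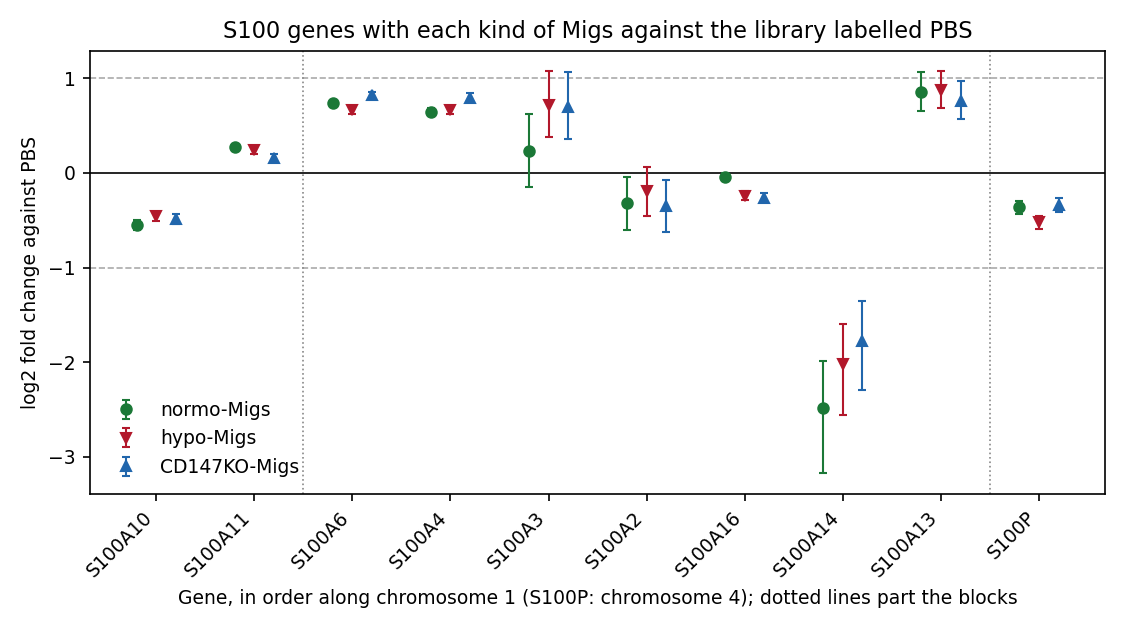
log2 fold change of each S100 gene in the 3 Mig libraries against the PBS library, in order along the chromosome, with 95% intervals for counting error and dashed lines at 2-fold; dotted lines part the S100A10 to S100A11 block, the block of 7 genes and S100P. Symbols of different Migs sit together for most genes, and S100A14 alone lies beyond 2-fold, at -2.48 to -1.77.

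Of the 10 genes, 5 were higher and 5 lower with all 3 Migs than with PBS; the 3 comparisons share the PBS library, and 82.0% of all genes tested likewise had 1 sign in all 3. In 8 of the 10 the 3 intervals all lay off 0, higher for S100A4, S100A6, S100A11 and S100A13 and lower for S100A10, S100A14, S100A16 and S100P. The share of all genes tested with all 3 intervals off 0 was not counted. Taken one comparison at a time, the intervals of 9, 9 and 10 of the 10 genes lay off 0 with normo-, hypo- and CD147KO-Migs, beside 70.7%, 72.1% and 70.9% of all genes tested. Intervals are narrower for genes with more reads, and that of S100A16 lay off 0 at a log2 fold change of -0.05 with normo-Migs. These counts are therefore not read as particular to the family. Past 2-fold, 1 of the 10 was lower and 0 were higher in each comparison with PBS. Of all genes tested, 12%, 11.6% and 12% were lower past 2-fold with normo-Migs, hypo-Migs and CD147KO-Migs, 18.1%, 18.9% and 18.3% were higher, and 30.2%, 30.5% and 30.3% were past 2-fold in either direction. The median log2 fold change of the 10 genes was 0.09, 0.02 and -0.05, beside 0.03, 0.04 and 0.03 over all genes tested. The family as a whole was therefore placed near the middle of all genes in each comparison, with members to either side.

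Between the Mig libraries, the S100 genes past 2-fold were 0 of 10 for hypo-Migs against normo-Migs, for hypo-Migs against CD147KO-Migs and for normo-Migs against CD147KO-Migs, beside 9.34%, 9.12% and 9.69% of all genes tested. At that share about 1 of 10 would be past it. Far fewer genes were past 2-fold when 10 reads were required in every library. All 10 S100 genes meet that requirement, so no conclusion about the family is drawn from the count. In 8 of the 10 genes the smallest change against PBS exceeded the largest change between Migs, which held for 56.7% of all genes tested. The 2 exceptions were S100A3 and S100A16. Counting intervals lay off 0 for 5, 4 and 7 of the 10 genes in the 3 pairs in the order above, beside 34.9%, 35% and 34.5% of all genes tested. Intervals are narrower for genes with more reads, so these counts too are not read as particular to the family.

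For hypoxia in the donor cells, hypo-Migs were compared with normo-Migs. S100A3 was higher by a log2 fold change of 0.49 (0.16 to 0.83), on 204 against 123 reads, and S100A16 was lower by -0.19 (-0.24 to -0.15). S100P was lower by -0.16 (-0.23 to -0.08), S100A6 by -0.08 (-0.11 to -0.04), and S100A10 was higher by 0.09 (0.03 to 0.14). For S100A14 the value was 0.46 (-0.20 to 1.21), an interval that holds no change as well as a 2-fold increase, so at 48 and 29 reads a difference was not detectable. The intervals of S100A2, S100A4, S100A11 and S100A13 held 0.

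For CD147 in the donor cells, hypo-Migs were compared with CD147KO-Migs. S100A6 was lower with hypo-Migs by a log2 fold change of -0.16 (-0.19 to -0.13), S100P by -0.18 (-0.26 to -0.11) and S100A4 by -0.13 (-0.17 to -0.10), while S100A11 was higher by 0.08 (0.04 to 0.11). The median size of change in this pair was 0.148 over all genes tested, and the remaining 6 genes had intervals that held 0. Normo-Migs against CD147KO-Migs, which differ in both oxygen and CD147, gave the widest value between Migs in the family, -0.71 (-1.46 to -0.06) for S100A14 on 29 against 50 reads. In the same pair S100A3 was at -0.47 (-0.82 to -0.14), S100A16 at 0.21 (0.17 to 0.26), S100A4 at -0.16 (-0.19 to -0.12) and S100A11 at 0.11 (0.08 to 0.15).

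The partners of S100 proteins were read in the same libraries. Of 17 partner genes tested, 4 were higher past 2-fold with each kind of Migs than with PBS, and 2, 2 and 1 were lower with normo-Migs, hypo-Migs and CD147KO-Migs. Over all genes tested, 18.1% to 18.9% were higher and 11.6% to 12% lower past 2-fold, so these counts are not read as particular to the partners. MYH9, the myosin heavy chain bound by S100A4, had 37768 reads in PBS, 17218, 19551 and 17168 with normo-, hypo- and CD147KO-Migs, a log2 fold change of -1.11, -1.17 and -1.16. The ratio of S100A4 to MYH9 in FPKM was thus 1.62 in PBS and 5.49, 5.78 and 6.30 in the Mig libraries. CACYBP, the partner of S100A6, had 8422 reads in PBS and 4867, 5285 and 4701 in the Mig libraries, and the ratio of S100A6 to CACYBP was 4.87 in PBS and 13.9 to 15.7 with Migs.

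For the annexin pairs the picture was mixed. ANXA2 had 40287 reads in PBS, 31217, 35257 and 30602 with normo-, hypo- and CD147KO-Migs, so it was lower along with S100A10, and their FPKM ratio stayed between 0.897 and 1.03. AHNAK, a giant scaffold protein held by the S100A10 and annexin A2 complex, was higher at a log2 fold change of 0.37, 0.30 and 0.36. ANXA1 had 12403 reads in PBS and 8377, 9532 and 7423 with Migs, opposite in sign to S100A11, and the S100A11 to ANXA1 ratio was 5.97 in PBS and 10.5 to 11.3 with Migs. ANXA6, a further annexin of this list, had 995 reads in PBS, 4753, 5636 and 5139 with normo-, hypo- and CD147KO-Migs, a log2 fold change of 2.27 to 2.35.

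For S100P, EZR was at 0.17, 0.18 and 0.18, and S100PBP, the S100P-binding protein gene, at -0.24, -0.18 and -0.28. MYH14 and SYT1, both on the partner list, went from 2 and 0 reads in PBS to between 49 and 101 with Migs and belong to genes that are nearly silent in the PBS library.

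**Figure D3:**
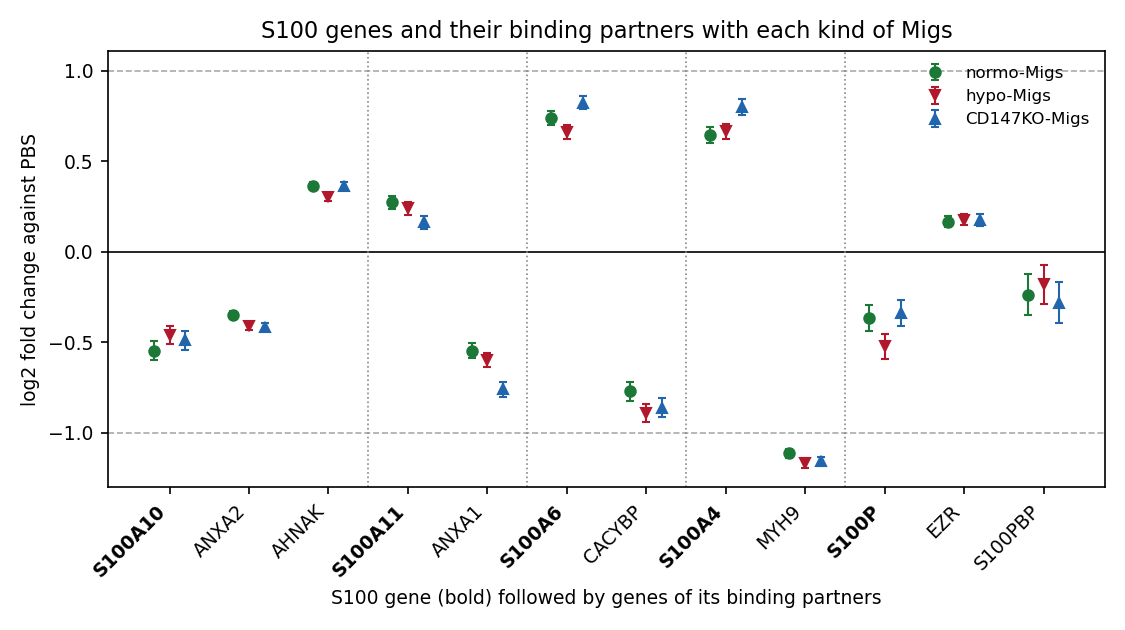
log2 fold change against PBS of 5 S100 genes (bold) and of the genes of their binding partners, with 95% intervals for counting error and dashed lines at 2-fold. S100A4 with MYH9, S100A6 with CACYBP and S100A11 with ANXA1 lie on opposite sides of 0, while S100A10 and ANXA2 lie on the same side.

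The plasminogen system is where S100A10 acts at the cell surface. Of 5 genes tested from it, 3 were higher past 2-fold with each kind of Migs and 0 lower. The shares over all genes tested were 18.1% to 18.9% higher and 11.6% to 12% lower. PLAU, the urokinase gene, had 2 reads in PBS and 379, 526 and 517 with Migs, and PLAT, which encodes tissue plasminogen activator, had 12 and then 447, 554 and 469. The plasminogen receptor gene PLGRKT had 139 reads in PBS and 303, 420 and 330 with Migs. S100A10 itself was lower in the same libraries.

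Of 8 receptor genes tested for secreted S100 proteins, 2 were higher past 2-fold with each kind of Migs, and 2, 3 and 1 were lower with normo-Migs, hypo-Migs and CD147KO-Migs. Beside these counts, 18.1% to 18.9% of all genes tested were higher and 11.6% to 12% lower. TLR4 had 16 reads in PBS and 324, 398 and 405 with Migs. ERBB3 was higher at a log2 fold change of 1.29, 1.25 and 1.15, and EGFR was lower at -1.17, -1.15 and -1.16.

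Of 11 other S100 genes, 5 had 0 reads in all libraries and 4 were tested. Of these 4, 2 were higher past 2-fold in each comparison with PBS. With normo-, hypo- and CD147KO-Migs, 1, 1 and 2 were lower. The shares over all genes tested were 18.1% to 18.9% higher and 11.6% to 12% lower. S100A1 had 42 reads in PBS and 35, 23 and 20 with normo-, hypo- and CD147KO-Migs. S100A5 had 10 and then 1, 7 and 4. S100A9 and S100A8, which pair as calprotectin and signal through TLR4 and RAGE, were the S100 genes with the largest fold increases. S100A9 had 16 reads in PBS, 139, 111 and 107 with normo-, hypo- and CD147KO-Migs, a log2 fold change of 2.99, 2.44 and 2.58. S100A8 had 0 reads in PBS and 25, 56 and 37 with Migs, at least 8.44-fold, 16.1-fold and 12.2-fold higher against a floor of 3 reads per library. Both stayed at or below 7.01 FPKM, under the 6 abundant members by a wide margin. The 7 fused-type S100 genes, in which the S100 domain is part of a long protein, had too few reads to be tested. Of 20 other EF-hand calcium sensors tested, such as the calmodulins and calpains, 0 were higher and 1 was lower past 2-fold in each comparison with PBS. The lower gene was CALML4 with normo-Migs and hypo-Migs, on 22 reads in PBS against 5 and 7. With CD147KO-Migs it was CALU, on 24919 reads in PBS against 12372. CALU was at 159 FPKM in PBS and 80.8, 84.5 and 77.1 FPKM with normo-, hypo- and CD147KO-Migs. It was thus lower with all 3 kinds of Migs and passed 2-fold with CD147KO-Migs only.

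Markers of other cell types were read in the same libraries. For each list, the shares of all genes tested to set beside its counts were 18.1% to 18.9% higher and 11.6% to 12% lower. Of 8 fibroblast and mesenchymal markers tested, 6 were higher past 2-fold with each kind of Migs, and the list's summed level was 57.3 FPKM in PBS and 162 to 168 FPKM with Migs. SPARC had 0 reads in PBS and 13404, 16845 and 15206 with Migs. Of 7 epithelial markers, 2 were higher and 2 lower past 2-fold with each kind of Migs, with a summed level of 1232 to 1420 FPKM over the 4 libraries. KRT19 had 11287 reads in PBS and 75, 52 and 32 with Migs, and CDH1 had 0 reads in PBS and 112 to 123 with Migs. KRT7 was also lower, with 46770 reads in PBS and 17940, 19191 and 16648 with normo-, hypo- and CD147KO-Migs. EPCAM was higher, with 578 reads in PBS and 1451, 1834 and 1524 with Migs. In the libraries where S100A14 was low, KRT19 and KRT7 were thus lower than in PBS, and CDH1 and EPCAM were higher. The 3 blood cell markers tested were higher, from a summed 0.322 FPKM in PBS to 2.18 to 2.66 FPKM. Of 4 endothelial markers tested, 1 or 2 were higher and 1 or 2 lower past 2-fold, and their list summed to between 0.578 and 0.881 FPKM. Of 6 hepatocyte markers tested, 2 to 4 were higher and 1 or 2 lower, among them FGB with 0 reads in PBS and 561, 827 and 832 with Migs, and their list summed to 0.708 FPKM in PBS and 7.14 to 9.77 FPKM with Migs. The part of these differences in the S100 values was not tested.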

How the data were processed

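RNA of 4 libraries of MHCC-97H cells, 1 per condition, was extracted with TRIzol and made into mRNA libraries. The submitters' processing notes name CASAVA 1.8, fastp, HISAT2 2.0.5, featureCounts 1.5.0-p3 and hg38; strand handling is not given in the sources used here. The authors deposited raw read counts per gene and FPKM values, which they scaled by gene length and library size. All 58735 genes had the coordinates of GENCODE 29, and no column of another sample was present (0 unused columns). Library totals of 33882496 to 40285223 reads make counting error small for the abundant genes and wide below 100 reads.

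Counts were scaled by TMM in edgeR 4.0.16 (R 4.3.3) over 19895 genes, those that reached 10 reads in any library. A log2 fold change is the difference in log2 CPM with a prior count of 2, and a gene was called at 2-fold or more. Intervals of a ratio are exact binomial (Clopper-Pearson) at 95%, and those of FPKM are Wilson intervals; both cover counting error only. FPKM values are given without a pseudocount, except in the alternative setting on log2(FPKM + 1). The study screens by fold and by an adjusted p from DESeq2, which has no residual degrees of freedom with 1 library per group; only the fold was kept as the call, and tests of reads, tried as alternatives (DESeq2 1.42.0 among them), compare libraries and not conditions. Functions were tested on simulated data. Python 3.11.15, pandas 2.3.3, numpy 2.4.6 and matplotlib 3.10.9 were used for annotation and plots.

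All 10 S100 genes are named. Of other lists, genes past 2-fold in 1 direction with all 3 Migs and with at least 50 reads in a library could be named, up to 6 per list, as could direct binding partners. ALB, AFP, APOB, TTR and HNF4A, the reads of KRT8 and KRT18, S100A1, S100A5, CALML4, CALU and the antisense genes were added after their values were seen. The S100 genes and the lists were chosen with earlier results of these data known. Protein sequences were not used here. Some genes and a sequence of the lists are not reported here.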

Additional observations from a re-analysis of the deposited data

How the results depend on the processing

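No paired analysis was possible because each condition has 1 library. Of 75 recounts of S100 genes past 2-fold, 65 equalled the reported count, and of 450 recomputed log2 fold changes 443 lay within the counting interval of the reported value and 0 changed sign. The other 7 comprise 4 values for normo-Migs against PBS with no scaling beyond total reads (S100A4 0.59, S100A6 0.69, S100A11 0.23 and S100A16 -0.09), and S100A14 on log2(FPKM + 1), which gave -1.57, -1.35 and -1.22 for normo-Migs, hypo-Migs and CD147KO-Migs against PBS. The count of S100 genes past 2-fold against PBS went from 1 to 0 for each kind of Migs where an adjusted p was also asked for, both in edgeR's exact test with an assumed coefficient of variation of 0.4 (adjusted p of S100A14 0.0671, 0.177 and 0.306) and in DESeq2 with the 4 libraries treated as replicates (0.565, 0.544 and 0.548). It stayed at 1 with an assumed coefficient of variation of 0.1. At a fold of 1.5, chosen after seeing the data, it was 4 with normo-Migs (S100A4, S100A6, S100A13 and S100A14), 5 with hypo-Migs and 5 with CD147KO-Migs (S100A3 added), and 1 for normo-Migs against CD147KO-Migs (S100A14).

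Counts over all genes moved with the filter and the call. For normo-Migs, hypo-Migs and CD147KO-Migs against PBS they were 6002, 6068 and 6033, and they were 10676, 9625 and 10759 with no filter, 2680, 2752 and 2747 with 10 reads in every library, 3799, 3822 and 3801 over protein-coding genes, 1619, 1674 and 1658 on log2(FPKM + 1), 1535, 1633 and 1575 with a coefficient of variation of 0.4, 0, 0 and 0 with DESeq2, and 9615, 9698 and 9704 at a fold of 1.5. For hypo-Migs against normo-Migs, hypo-Migs against CD147KO-Migs and normo-Migs against CD147KO-Migs they were 1858, 1814 and 1928, and 5103, 4968 and 5930, 253, 233 and 264, 639, 641 and 683, 56, 80 and 66, 0, 1 and 2, 0, 0 and 0, and 3630, 3662 and 3681 under the same settings; with the exact binomial test they were 975, 1003 and 977, and with a coefficient of variation of 0.1 they were 259, 228 and 281. Leaving the PBS library out of the scaling moved no count of S100 genes between Migs. No replicate could be left out, and the depth limits S100A14, S100A3 and S100A2, whose intervals are the widest.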
